A study of Homo sapiens with 12 samples.

Results

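Genes of one long block of the long arm of chromosome 1 were described in HAP1 cells that lack SETDB1. The block runs from 146938744 to 248859144 of chromosome 1 (GRCh38), from the start of NBPF12 to the end of ZNF692, and spans 101.9 Mb. Of 58735 gene IDs in the count tables, 2386 lay wholly inside it, and the 491 described here had a mean raw count of at least 20 over the 6 non-directional libraries. SETDB1 itself and the neighbouring interferon-inducible genes IFI16, AIM2, MNDA and PYHIN1 were left out by name, of which SETDB1 and IFI16 reached that count. The block was chosen by the non-directional fold changes, because its genes were lower in those knockout libraries. Its lowering in those libraries is therefore a description and was not tested.

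Total RNA was sequenced from HAP1, a human cell line that is close to haploid and stems from chronic myelogenous leukemia, either as wild type or labelled SETDB1 knockout. Per genotype there were 3 libraries from a non-directional kit, blind to the strand of the transcript, and 3 from a directional kit that marks it, which gives 12 libraries in 4 groups. All cells were grown in the same medium, and neither the number of knockout clones nor the separate cultures behind the replicate numbers were given in the labels. P-values therefore measure the spread between these libraries, which may be technical.

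SETDB1 is a methyltransferase that places methyl groups on lysine 9 of histone H3 and so helps to silence retrotransposons and some genes, and it is itself encoded in this block. Chromosome 1q carries many genes with unrelated tasks, among them the S100 calcium-binding proteins, a histone gene cluster, splicing factors and mitochondrial enzymes. The number of copies of the region per cell was not measured in these files. In bulk RNA, fewer cells of one kind and less RNA per cell cannot be told apart.

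Gene counts totalled 8921959 to 10199215 per non-directional library and 532021 to 676691 per directional library, so 3 counts stood for 0.294 to 0.336 and 4.43 to 5.64 counts per 1000000 gene counts (CPM). The knockout libraries of the non-directional kit differed from each other by no more than sampling noise (chi-square per degree of freedom 0.956, 0.979 and 0.991) and were kept as 3 samples as labelled. The wild-type libraries of that kit differed by more. Their values were 1.82 and 2.00 in the pairs with replicate 2, and 1.03 between replicates 1 and 3. SETDB1 had 519 to 651 counts in the wild type, against 106 to 118 in the knockout. Of 10 blood cell markers, 8 were below 1 CPM in the wild type, among them PTPRC, SPI1, MPO, CD33 and SPN at 0, while KIT and TAL1 stood at 18.8 and 16.1 CPM. BCR and ABL1, the partners of the leukemia fusion, stood at 33.9 and 14.4 CPM in the wild type, are not among the 10 and had log2 fold changes of 0.64 and 1.40. The summed level of the 10 markers was 35.5 to 36.5 CPM in the wild type, against 19.5 to 22.5 CPM in the knockout. Within the sum TAL1 had a log2 fold change of -2.32 and KIT of -0.19. The part of these differences in the results below was not tested.

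The 250 bases before the transcription start are given for 3 genes that stood higher in the knockout and 3 that stood far below the shared drop, because nothing in the selection used promoter sequence. Among genes with a mean count of at least 50 and a promoter within 500 bp of the annotated start, these had the 3 highest and the 3 lowest log2 fold changes. Sequences are from RefSeq on GRCh38.p14, written 5′ to 3′ on the strand of the gene, with CG dinucleotides in capitals.
CRABP2: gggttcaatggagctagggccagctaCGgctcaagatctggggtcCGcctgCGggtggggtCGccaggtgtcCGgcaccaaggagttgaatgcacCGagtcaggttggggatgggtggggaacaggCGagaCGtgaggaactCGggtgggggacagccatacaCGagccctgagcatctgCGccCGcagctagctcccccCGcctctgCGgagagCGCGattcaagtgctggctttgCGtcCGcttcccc
NID1: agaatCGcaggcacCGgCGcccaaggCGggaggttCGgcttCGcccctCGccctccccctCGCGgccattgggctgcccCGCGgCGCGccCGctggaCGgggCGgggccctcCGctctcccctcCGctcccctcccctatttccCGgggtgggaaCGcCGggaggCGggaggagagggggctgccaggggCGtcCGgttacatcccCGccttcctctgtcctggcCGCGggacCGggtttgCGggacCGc
KCNK2: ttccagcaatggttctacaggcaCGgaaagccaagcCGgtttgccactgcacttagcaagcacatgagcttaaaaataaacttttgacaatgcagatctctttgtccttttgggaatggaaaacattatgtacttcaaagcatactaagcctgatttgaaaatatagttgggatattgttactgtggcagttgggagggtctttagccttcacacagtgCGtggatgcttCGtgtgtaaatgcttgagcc
KIAA0040: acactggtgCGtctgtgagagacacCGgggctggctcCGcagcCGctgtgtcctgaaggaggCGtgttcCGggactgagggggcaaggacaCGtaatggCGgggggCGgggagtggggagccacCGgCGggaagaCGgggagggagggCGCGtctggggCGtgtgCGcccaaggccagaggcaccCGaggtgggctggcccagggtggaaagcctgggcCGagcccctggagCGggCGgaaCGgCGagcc
S100A6: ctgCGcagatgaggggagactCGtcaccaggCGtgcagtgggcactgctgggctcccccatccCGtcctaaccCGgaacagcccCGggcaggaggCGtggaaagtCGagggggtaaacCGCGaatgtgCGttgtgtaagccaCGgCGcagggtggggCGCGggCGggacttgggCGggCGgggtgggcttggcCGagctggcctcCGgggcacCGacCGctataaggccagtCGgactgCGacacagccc
CHRM3: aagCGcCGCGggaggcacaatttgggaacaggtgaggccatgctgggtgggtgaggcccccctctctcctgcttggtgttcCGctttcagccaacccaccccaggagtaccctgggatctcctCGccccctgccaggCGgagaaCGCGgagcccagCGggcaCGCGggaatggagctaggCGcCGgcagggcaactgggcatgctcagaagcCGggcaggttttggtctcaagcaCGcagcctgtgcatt
The windows are chr1:156705785-156706034 (minus strand), chr1:236065091-236065340 (minus), chr1:215005292-215005541 (plus), chr1:175192988-175193237 (minus), chr1:153535992-153536241 (minus) and chr1:239386318-239386567 (plus). They held 18 CG dinucleotides for CRABP2, 30 for NID1, 4 for KCNK2, 22 for KIAA0040, 24 for S100A6 and 15 for CHRM3. Neither TATAAA nor its reverse complement TTTATA occurred in any of the 6 windows. RefSeq promoters were found for 411 of the 491 genes. Their median was 19 CG dinucleotides per 250 bases, against 11 over 27305 promoters of all genes, and 7.30% of them held at most 5, against 38.7%. TATAAA or TTTATA occurred in 6.08% of the 411 and in 11.1% of all promoters. The 27305 promoters were not limited by count, whereas the 411 belong to genes at the count minimum. Promoters of other genes at that minimum were not compared, so these differences cannot be ascribed to the block. The 22 promoters of genes above 0, the 361 of genes between -1 and 0 and the 28 of genes below -1 had medians of 18, 19 and 19 CG dinucleotides.

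The non-directional libraries showed a drop that most of the 491 genes had in common. The median log2 fold change of knockout over wild type was -0.47, which is 0.721-fold, with quartiles of -0.64 and -0.31. Of the 491 genes, 463 (94.3%) were below 0 and 28 were above it. In contrast, the 11927 other genes at the same count minimum had a median of 0.01 with 48.2% below 0. The 725 genes of chromosome 1 before the block had a median of 0.03, and the 154 genes of a raised block of chromosome 9 had a median of 0.40.

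Summed over the 491 genes, the wild-type libraries held 49134, 48313 and 49152 counts per 1000000 gene counts and the knockout libraries 36290, 36265 and 36358. The groups did not overlap, and the means were 48866 ± 479 and 36304 ± 48.2 (SD, n = 3 each), a ratio of 0.743. The directional libraries gave 14322, 14391 and 14633 in the wild type, against 10163, 10081 and 10690 in the knockout. Their means were 14448 ± 163 and 10311 ± 330 (SD, n = 3 each), a ratio of 0.714. The sum was thus lower in every knockout library of both kits, by a similar factor, although the directional counts have a limit on strand that is set out below.

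**Figure D1:**
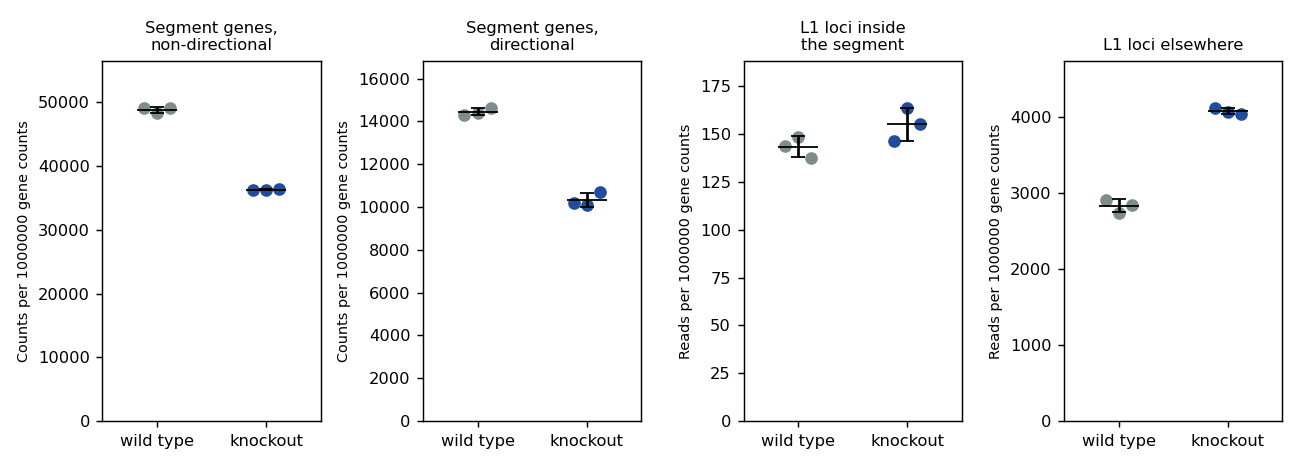
Sums per library over the 491 segment genes (both kits, counts per 1000000 gene counts) and over the long L1 loci inside the segment and elsewhere (non-directional, reads per 1000000 gene counts). Points are libraries, horizontal bars with caps show mean and SD (n = 3). The gene sums were lower in every knockout library. The L1 sum inside the segment was 143 ± 5.53 in the wild type, against 155 ± 8.67 in the knockout. Elsewhere the L1 sum was 2830 ± 85.7 in the wild type, against 4076 ± 39.7 in the knockout.

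The scatter of single genes around the shared drop was similar to the scatter of genes elsewhere. The robust standard deviation of the fold changes (scaled median absolute deviation) was 0.241 among the 491 genes, 0.251 among the other 11927 and 0.241 among the 725 genes of chromosome 1 before the block. A share of 65.4% lay within 0.25 of the median of the block, and 64.5% of the other genes lay within 0.25 of theirs. In the plot of both distributions, the block appears as a shifted copy of the rest rather than as a broader or narrower one.

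**Figure D2:**
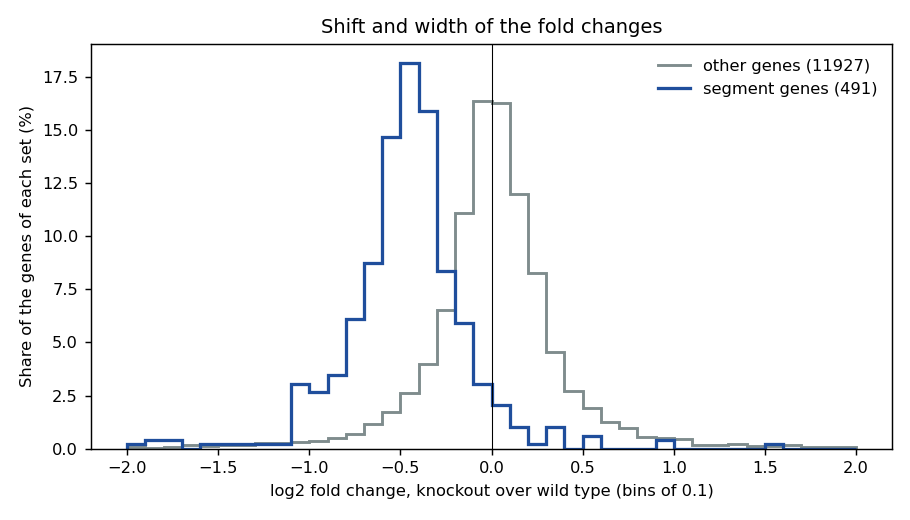
Distribution of non-directional log2 fold changes of the 491 segment genes and 11927 other genes, as the share of each set per bin of 0.1. The segment genes peak near their median of -0.47 with a robust standard deviation of 0.241, the other genes near 0.01 with 0.251, and 12 segment genes and 278 others lie beyond the plotted range of -2 to 2.

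The scatter was wider among genes with low counts, whose single values are also less precise. When the 491 genes were ranked by mean count and divided into 4 parts, in the lowest (20 to 156), the robust standard deviation was 0.411 and 87.0% were below 0. In the following parts it was 0.235, 0.187 and 0.185, and the shares below 0 were 95.1%, 96.7% and 98.4%. The median SE of a gene was 0.157 in the lowest part and 0.075, 0.053 and 0.037 in the following ones. Other genes were not divided in this way, and the part of measurement error in the scatter was not tested. Of the 28 genes above 0, 16 belonged to the lowest part and 2 to the highest. The medians of the 4 parts were -0.53, -0.49, -0.42 and -0.45. By gene length, the medians of 4 such parts from the shortest to the longest were -0.52, -0.50, -0.39 and -0.43.

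The 5 genes with the highest counts were all below 0, on both sides of the shared value. HNRNPU, an RNA-binding scaffold protein of the nucleus, had 1355, 1321 and 1371 CPM in the wild type, against 1169, 1167 and 1180.4 CPM in the knockout. PARP1, which detects DNA breaks, had a log2 fold change of -0.40 (SE 0.02), and CCT3, a subunit of the cytosolic chaperonin, had -0.40 (SE 0.02). NUCKS1, a chromatin-associated phosphoprotein, had -0.64 (SE 0.03). HNRNPU and the RNA helicase DHX9 were the shallowest of these 5, at -0.21 (SE 0.02) and -0.13 (SE 0.02). The range of the 5, from -0.64 to -0.13, was wide against their standard errors.

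Calls of the fit over all genes are given as a description only, since this contrast delimited the block. With edgeR and a Benjamini-Hochberg adjusted p under 0.05, 419 of the 491 genes were lower, 12 higher and 60 not called, where 25.9% of all genes tested were called lower and 25.5% higher. In 418 genes every knockout library was below every wild-type library (27.0% of all genes tested), in 14 every knockout library was above (29.1%), and in 59 the groups overlapped. All 491 genes passed the filter on low counts.

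The drop was present along the whole block. In windows of 10 Mb from its start the medians lay between -0.54 and -0.38 for the windows with at least 10 genes. The first 10 Mb, the most crowded with 142 genes, had a median of -0.49, and the next 10 Mb had -0.54 with none of 44 genes above 0. The windows from 60 to 70 Mb and from 70 to 80 Mb were the shallowest, at -0.40 (31 genes) and -0.38 (42 genes). The window from 40 to 50 Mb held only 6 genes, with a median of -0.55.

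**Figure D3:**
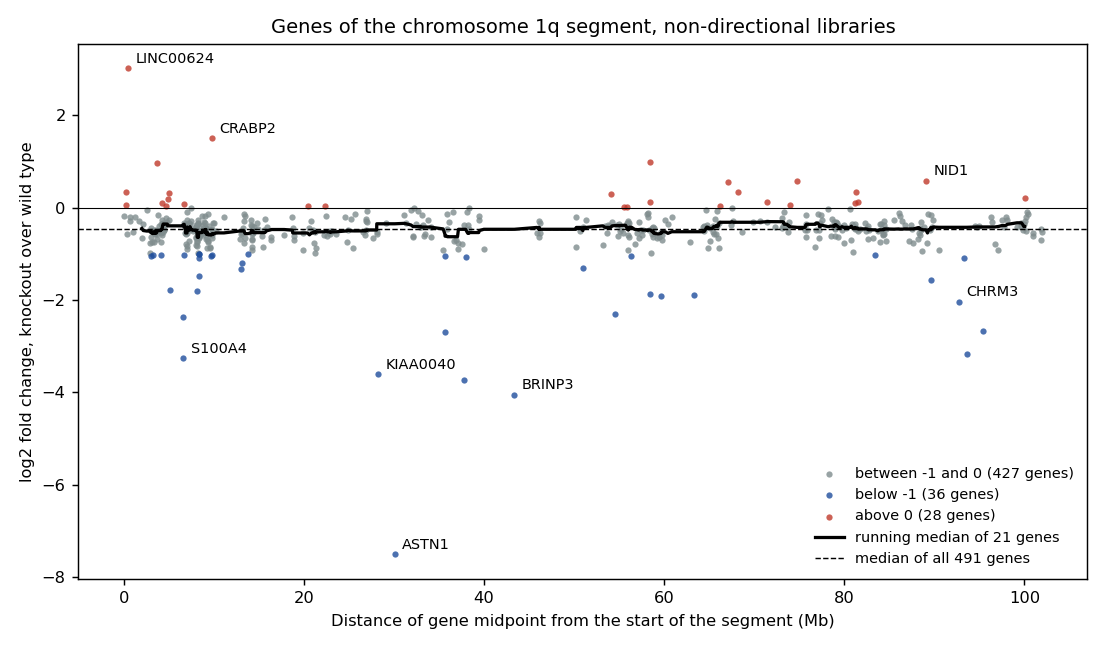
Non-directional log2 fold change of each of the 491 segment genes against the distance of its midpoint from the start of the segment in Mb. Red points are the 28 genes above 0, blue the 36 below -1 and grey the 427 between. The black line is a running median of 21 genes, which stays below 0 over the whole length, on both sides of the dashed median of -0.47.

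Finer divisions, which hold fewer genes each, gave a wider range. Medians of fewer genes vary more by themselves, and the part of this in the range was not tested. Of the windows of 5 Mb with at least 10 genes, the deepest lay from 15 to 20 Mb (median -0.60, 14 genes). The shallowest lay from 70 to 75 Mb (-0.31, 14 genes, 3 of them above 0). Windows with fewer genes are not in this ranking. From 90 to 95 Mb the median was -0.92, with 3 of 7 genes below -1. From 45 to 50 Mb it was -0.54 (5 genes), and the window from 40 to 45 Mb held 1 gene. Among 25 runs of neighbouring genes, 24 of which held 20 genes, the deepest ran from SSR2 to HDGF (-0.62) and the shallowest from TMEM206 to TGFB2 (-0.31, 4 genes above 0). The fold changes of neighbours were weakly related, with a Spearman's rho of 0.19 over 490 pairs of adjacent genes. Pairs share genes and overlapping transcripts, and the value is a description.

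**Figure D4:**
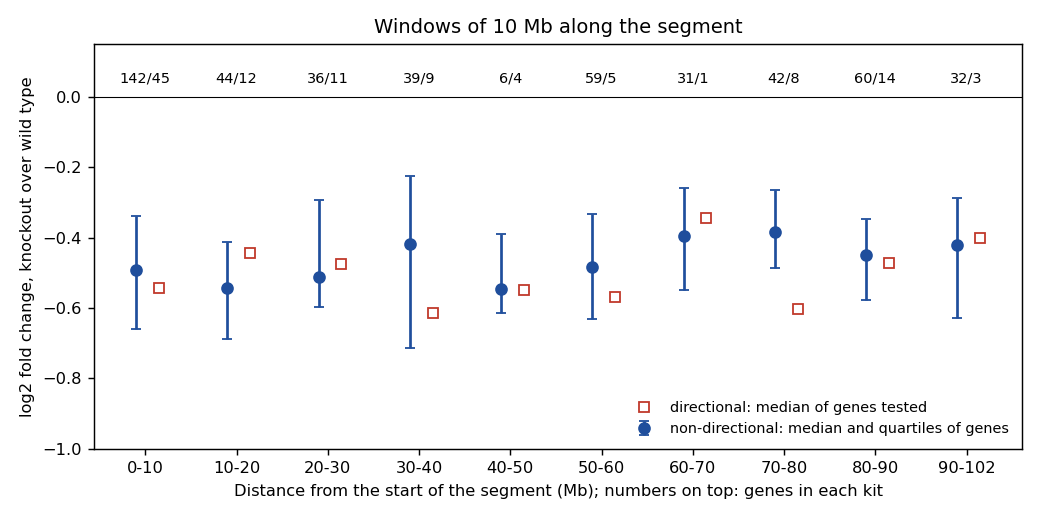
Median log2 fold change in windows of 10 Mb along the segment. Filled circles with bars are medians and quartiles of the genes in the non-directional libraries, open squares are medians of the genes that the directional libraries could test, and the numbers on top give the genes in each. Medians of both kits are below 0 in every window, but the directional value from 60 to 70 Mb rests on 1 gene.

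At both ends values below 0 were also found outside the limits of the block. On the centromere side, the 12 nearest tested genes outside were all below 0, with a median of -0.43. The 4 nearest of these were POLR3GL (-0.69, SE 0.14), TXNIP (-1.21, SE 0.12), LINC01719 (-0.05, SE 0.22) and NBPF10 (-0.41, SE 0.30). Farther out among the 12, POLR3C (-0.09, SE 0.05) and PIAS3 (-0.08, SE 0.09) stood near 0. Just inside, NBPF12 stood at -0.18 (SE 0.12), PRKAB2 at 0.06 (SE 0.06) and PDIA3P1 at 0.34 (SE 0.14). FMO5, also inside but under the count minimum, stood at 0.83 (SE 0.36). On the telomere side, OR2W3 (-0.60, SE 0.16), SH3BP5L (-0.46, SE 0.05), ZNF672 (-0.71, SE 0.05) and ZNF692 (-0.52, SE 0.07) lay inside, and PGBD2, the only tested gene beyond them, had -0.68 (SE 0.16).

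The genes nearest to the count minimum were measured with few reads. Just below it lay RGS7 (mean count 19.7, 0.27), S100A16 (19.7, -0.26) and SH2D2A (19.8, 0.15) with their log2 fold changes. Just above it lay NUAK2 (20, 0.98), SLC39A1 (20.5, -0.09) and SLC35F3 (21, -0.72).

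A total of 28 genes stood above 0, 7 of them above 0.5. LINC00624, a long non-coding RNA at 147258885 to 147517875 on the minus strand, had 2.55, 2.24 and 2.55 CPM in the wild type, against 19.1, 19.9 and 21.2 CPM in the knockout. The groups were far apart, with a log2 fold change of 3.02 (SE 0.14). It lies opposite to CHD1L, a chromatin remodeller that shared the drop (-0.57), and in these libraries reads of the overlapping part cannot be told apart by strand. An L1PA2 element at 147423219 to 147429241 lies within LINC00624, and its reads numbered 3, 4 and 4 in the wild type, against 19, 27 and 30 in the knockout.

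CRABP2, which carries retinoic acid to its nuclear receptor, had 20.6, 19.3 and 16 CPM in the wild type, against 54.4, 55.0 and 50.6 CPM in the knockout, a log2 fold change of 1.51 (SE 0.07). NID1, which encodes nidogen of the basement membrane, was the most abundant gene of the 12 called higher. It had 111, 108 and 103 CPM in the wild type, against 161, 158 and 166 CPM in the knockout (0.58, SE 0.04). For both genes every knockout library was above every wild-type library, and neither had an exon overlap with another gene.

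THEM4, a mitochondrial thioesterase, had 42.1, 41.4 and 36.4 CPM in the wild type, against 50.8, 49.9 and 49.8 CPM in the knockout (0.32, SE 0.06). PROX1, a homeobox transcription factor, stood at 6.16 to 8.30 CPM and 10.2 to 11.1 CPM (0.56, SE 0.13). Neither gene overlapped between the groups.

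Several of the others had low counts. NUAK2, an AMPK-related kinase with a mean count of 20, had a log2 fold change of 0.98 (SE 0.28), and ADAMTSL4, a secreted matrix protein, 0.97 (SE 0.20). DUSP10, a phosphatase of MAP kinases, had 0.57 (SE 0.19). The potassium channel KCNK2 had 0.34 (SE 0.11), the zinc finger gene ZNF695 0.21 (SE 0.08) and the pseudogene PDIA3P1 0.34 (SE 0.14). The groups of PDIA3P1 overlapped, and its reads may be shared with its parent gene PDIA3.

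**Figure D5:**
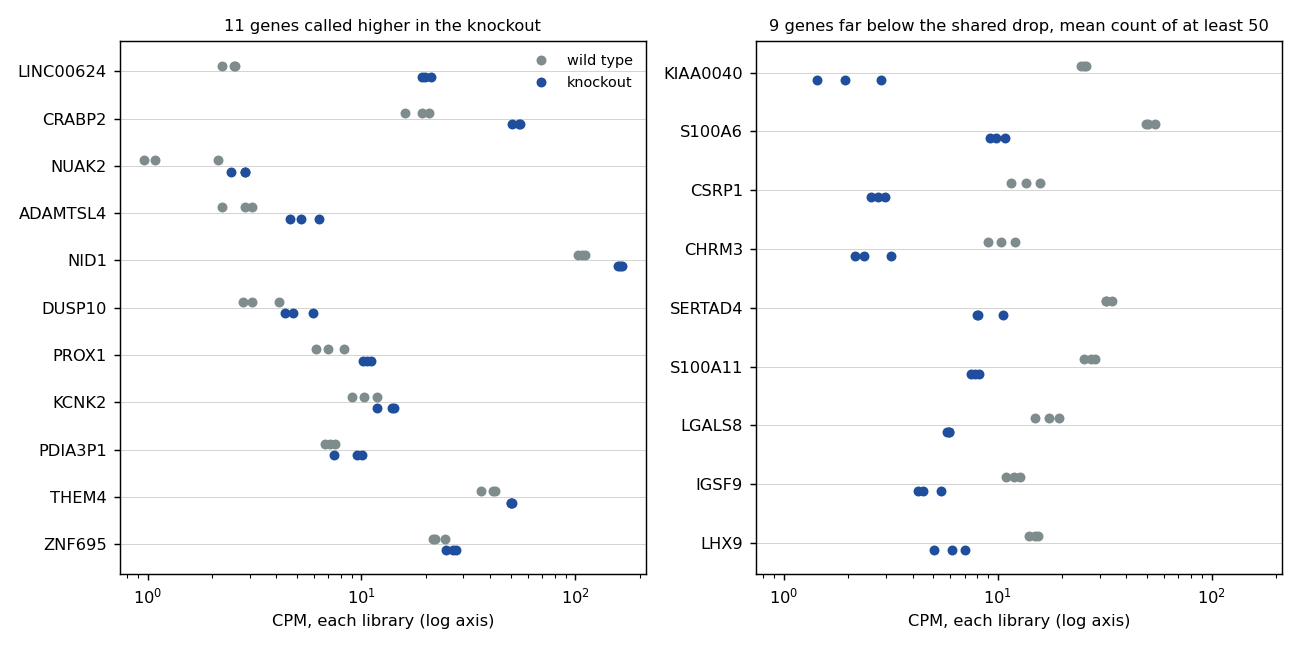
CPM in each non-directional library (log axis) for 11 of the 12 genes called higher in the knockout and for 9 genes far below the shared drop with a mean count of at least 50. Grey points are the 3 wild-type and blue points the 3 knockout libraries. LINC00624 and CRABP2 show the widest gaps on the left, and KIAA0040 on the right.

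The other 16 genes above 0 were not called and stood near 0 rather than well above it. KIF21B, a kinesin, was the highest of them at 0.30 (SE 0.16). The best measured were KDM5B, a histone H3 lysine 4 demethylase (0.01, SE 0.04), POU2F1, a widely expressed transcription factor (0.03, SE 0.05), SNX27, a sorting nexin of endosomes (0.04, SE 0.05), RPS6KC1 (0.04, SE 0.06) and PRKAB2, a subunit of AMPK (0.06, SE 0.06). KDM5B had 168, 158 and 171 CPM in the wild type, against 168, 165 and 172 CPM in the knockout. Its groups overlapped, so against the shared drop it stood higher by about the depth of that drop.

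Some genes above 0 lay close together. PRKAB2, PDIA3P1 and LINC00624 lay at the centromere end, SNX27, TDRKH and THEM4 followed within the first 10 Mb, and IBA57 and HIST3H2A lay together in the window from 80 to 90 Mb. Of the 28 genes above 0, 19 (67.9%) had another such gene within 1 Mb, against 223 (48.2%) of the other 463 genes. For the 36 genes below -1 the corresponding shares were 63.9% and 53.4%. Genes are crowded unevenly along the block, and these shares were not tested.

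On the other side, 36 genes lay below -1. ASTN1, which encodes the neuronal migration protein astrotactin, had 88, 71 and 81 counts in the wild type, against 0, 0 and 1 in the knockout. The ratio of its summed counts per 1000000 was 0.0040, with an exact 95% interval of 0.00010 to 0.0225 that covers counting error only. ASTN1 was named for its low value in this contrast, and the interval does not allow for that choice. BRINP3, a gene of nervous tissue, had 5.20, 4.03 and 4.58 CPM in the wild type, against 0.205, 0.204 and 0.394 CPM in the knockout. The knockout values of BRINP3 were near the level of 3 counts. Both genes reached the count minimum only through their wild-type libraries.

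KIAA0040 had 25.8, 25.4 and 24.6 CPM in the wild type, against 1.43, 1.94 and 2.85 CPM in the knockout, a log2 fold change of -3.60 (SE 0.14). CSRP1, a LIM-domain protein, had 11.6 to 15.7 CPM and 2.56 to 2.97 CPM (-2.31, SE 0.16). In both the lowest wild-type library was above the highest knockout library by several fold.

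Other genes far below the shared drop were the muscarinic receptor CHRM3 (-2.03, SE 0.17), the Ras-binding protein RASSF5 (-1.92, SE 0.20), SERTAD4 (-1.89, SE 0.10), the galectin LGALS8 (-1.56, SE 0.12), the adhesion protein IGSF9 (-1.34, SE 0.14) and the homeobox gene LHX9 (-1.30, SE 0.13). Their promoters lay between 159945614 (IGSF9) and 239386567 (CHRM3) of the chromosome. Whether these genes were bunched was not tested. The pseudogene MTX1P1 stood at -1.49 (SE 0.18). Its reads may be divided with its near-identical parent gene, so the value is uncertain.

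The S100 genes, which encode small calcium-binding proteins in a tight cluster, were the listed group that departed most. Of 15 listed, 5 were among the 491, and their median was -1.79. S100A4 had 9.22, 6.84 and 8.19 CPM in the wild type, against 0.716, 1.02 and 0.787 CPM in the knockout (-3.26, SE 0.23). S100A6 had 49.3, 54.1 and 50.3 CPM and 9.82, 9.18 and 10.8 CPM (-2.37, SE 0.08), and S100A11 had 25.4 to 28.4 CPM and 7.47 to 8.17 CPM (-1.79, SE 0.10). S100A10 stood above the median of the block at -0.27 and S100A13 at 0.08 with overlapping groups. Members of one cluster thus ranged from -3.26 to 0.08.

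Most members of the other gene groups except the NBPF genes were called lower. Medians lay from -0.55 to -0.35 except in the NBPF and HIST2H genes. Of 18 genes of RNA processing all 18 were called lower, with a median of -0.44, and TSEN15, a subunit of the tRNA splicing endonuclease, stood at -0.76. All 13 mitochondrial genes were lower (median -0.49), with the import proteins TOMM20 at -0.68 and TIMM17A at -0.35. All 25 metabolic enzymes were lower (median -0.50), from PIGM of glycolipid anchor synthesis (-1.20) to the nucleotidase BPNT1 (-0.23). The contrast contains the rule, and with 25.9% of all genes called lower these counts are descriptions.

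Of 19 chromatin proteins 17 were called lower (median -0.48), with LMNA, the nuclear lamin A/C, at -0.86 and RNF2 of the Polycomb complex at -0.10. Of 13 genes of cell division 11 were lower (median -0.37), with NUF2 of the kinetochore at -0.63 and the centromere protein CENPF at -0.29. Of 14 genes of translation 13 were lower (median -0.35), with the mitochondrial ribosomal protein MRPL24 at -1.03 and RPS27 of the cytosolic ribosome at -0.26. Of 15 genes of the proteasome and ubiquitin 14 were lower (median -0.49), with the ubiquilin UBQLN4 at -0.69 and the proteasome subunit PSMD4 at -0.52.

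Of 16 genes of membrane traffic 14 were called lower (median -0.40), with the vesicle protein VAMP4 at -0.75 and the small GTPase ARF1 at -0.44. Of 12 genes of the cell surface 11 were lower (median -0.45), with JTB at -0.90, the laminin chain LAMC1 at -0.31 and the growth factor TGFB2 at 0.13. Of 17 genes of stress and survival signalling 16 were lower and NUAK2 was higher (median -0.55). In that group BTG2, an antiproliferative gene, stood at -1.05 and MCL1, an anti-apoptotic BCL2 relative, at -0.56. Of 14 zinc finger genes 11 were lower and ZNF695 was higher (median -0.42), with ZBTB18 at -0.91 and ZNF496 at -0.13.

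Of 5 histone genes 4 were called lower (median -0.49), from HIST2H2AC at -1.05 to HIST3H2A at 0.13, and 4 HIST2H genes had a median of -0.88. The histone genes have near-identical copies elsewhere in the genome that may share their reads. The same limit holds for the 5 NBPF genes, whose median was -0.21 and of which 1 was called lower. Together, 183 of the 491 genes were on at least 1 list, with a median of -0.45.

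The directional libraries were not used to delimit the block and allow a test. They were much shallower on genes, with 5.2% to 5.3% of listed reads in genes, and 112 of the 491 genes passed the filter on low counts while 379 did not. Of these 112, 105 (93.8%) were below 0, against 48.8% of the 4633 other genes tested. The median log2 fold change was -0.53 with quartiles of -0.72 and -0.33, against 0.01 for the others. By edgeR with adjusted p under 0.05, 52 of the 112 genes (46.4%) fell, where 8.54% of all genes tested fell, and 1 rose, where 7.67% of all genes rose. In 64 of the 112 every knockout library was below every wild-type library, against 15.1% of all genes tested. Without replicate 2 of the wild type, 32 fell, where 6.24% of all genes fell, and by DESeq2 15 fell, where 3.50% fell.

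The strand that the directional tables counted limits what these values refer to. Of the 112 genes, 71 shared exonic bases with a gene of the opposite strand, and for 53 of them that gene was also among the 491. Across the 71, the directional count was related to the non-directional count of the opposite gene (Spearman's rho 0.48) and not to that of the gene itself (rho -0.11), a description across genes. RUSC1-AS1, an antisense RNA, had a mean of 1690 directional but only 26.8 non-directional counts, while its opposite genes FDPS and RUSC1 had 1229 and 704 non-directional counts. A directional value is therefore given for the counted feature and not read as its own sense transcription. The 41 genes without such an overlap had a median of -0.45, and 15 of them fell, where 8.54% of all genes tested fell. A share over all genes without such an overlap was not computed.

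Among genes without an opposite-strand overlap, C1orf21 had 32.6, 45.8 and 54.5 CPM in the directional wild type and 4.79, 3.50 and 1.83 CPM in the knockout. The knockout values stood for 3, 2 and 1 counts, at or below the level of 3 counts. The ratio of the summed counts per 1000000 was 0.0783, with an exact 95% interval of 0.0279 to 0.178 that covers counting error only. The fitted log2 fold change, which at such counts depends on the prior count, was -3.60 (SE 0.43, edgeR adjusted p = 4.5e-11), and in the non-directional libraries it was -0.79. MTX1P1 had 94.5, 111 and 109 CPM and 43.1, 35.0 and 38.3 CPM, a fall by 1.43 on the log2 scale (edgeR adjusted p = 1.7e-09). MEX3A, an RNA-binding protein, fell to 0.353-fold (edgeR adjusted p = 0.0073). For C1orf21, MTX1P1 and MEX3A the genotypes did not overlap. The call of MEX3A was lost without wild-type replicate 1 (edgeR adjusted p = 0.13), without knockout replicate 2 (0.059) and with DESeq2 (adjusted p = 0.12). NUCKS1, LMNA and PARP1, chosen after their values were seen, had directional log2 fold changes of -0.68, -0.73 and -0.61. These refer to the counted feature and are no check of the other kit gene by gene.

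Several genes that lie opposite to another gene had different values in the kits. HEATR1, a factor of ribosome synthesis, had a non-directional log2 fold change of -0.17 but fell by 2.06 in the directional libraries (edgeR adjusted p = 2e-11). Its neighbour LGALS8 on the other strand had -1.56 with the non-directional kit and -0.29 with the directional one. CERS2, a ceramide synthase opposite to SETDB1, had 437, 437 and 410 CPM in the directional wild type and 118, 103 and 110 CPM in the knockout. Its fall by 1.96 (edgeR adjusted p = 2.6e-29) compares with -0.50 for CERS2 and -2.39 for SETDB1 in the non-directional libraries. ASH1L-AS1, opposite to the methyltransferase ASH1L, fell by 1.74 (edgeR adjusted p = 0.0018), a call lost without wild-type replicate 2 (edgeR adjusted p = 0.10) and with DESeq2 (adjusted p = 0.060).

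The only gene that rose was JMJD4, a lysyl hydroxylase, with 13, 11.8 and 11.3 CPM in the wild type, against 31.9, 22.7 and 31.0 CPM in the knockout. Its log2 fold change was 1.23 (SE 0.36, edgeR adjusted p = 0.0084), against -0.69 in the non-directional libraries. The call was lost without knockout replicate 1 (edgeR adjusted p = 0.063) and with DESeq2 (adjusted p = 0.13). Of the 28 genes above 0 in the non-directional libraries, 4 were deep enough to test, and all 4 were below 0 here. Among them were LINC00624 (-0.54), PPP1R12B (-0.57) and NME7 (-0.82), and each lies opposite to at least 1 other gene. The opposite genes of these 3, CHD1L, SYT2 and ATP1B1, had -0.57, -0.36 and -0.59 in the non-directional libraries. The genes above 0 thus had no strand-resolved check of their own in these libraries.

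In windows of 10 Mb the directional medians of windows with at least 5 genes lay between -0.61 and -0.45. Over the 112 genes tested in both kits the fold changes showed no relation gene by gene (Spearman's rho 0.00096), while their medians were -0.48 and -0.53. In the directional libraries the median SE of these genes, 0.268, was near their robust standard deviation of 0.295. Of the 112, 71 shared exonic bases with a gene of the opposite strand. This rho therefore cannot tell disagreement of the kits from imprecise values. What both kits had in common was the shift of the whole set. By the genotype by kit term of an edgeR fit over both kits, 10 of the 491 genes differed between the kits, where 1.82% of all genes tested did. These shares were close to each other.

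As a sum, L1 reads inside the block were not lower in the knockout, but they stood low against L1 reads elsewhere. L1 (LINE-1) elements are retrotransposons that encode the proteins for their own copying, and the deposited tables covered long elements of the younger subfamilies. The 204 loci inside the block, 177 of them with reads, had 143 ± 5.53 reads per 1000000 gene counts in the wild type, against 155 ± 8.67 in the knockout (SD, n = 3 each), 1.08-fold. The 6233 loci elsewhere had 2830 ± 85.7 and 4076 ± 39.7, 1.44-fold. The ratio inside was thus 0.751 of that elsewhere. The summed counts of the block's genes had a knockout to wild-type ratio of 0.743 in the same libraries. Whether the 2 values are linked was not tested. By age of the subfamily, a division made after the values had been seen, the ratio inside over elsewhere was 0.896 for the younger L1HS to L1PA4. For the older L1PA5 to L1PA8 it was 0.611. On the deposited values, which are divided by a factor per library, the sum inside was 0.846-fold and the sum elsewhere 1.13-fold. Of 43 loci inside with at least 60 reads, 22 were higher and 21 lower in the knockout. The same count was not made for loci elsewhere.

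Single loci went both ways, and their positions are given as the tables list them. An L1HS element within XPR1, at 180866812 to 180872843, had 40, 42 and 41 reads in the wild type, against 93, 123 and 106 in the knockout. An L1PA3 element outside any gene, at 165084966 to 165091110, had 23, 24 and 44 reads in the wild type, against 4, 2 and 4 in the knockout. An L1PA7 element within RYR2, at 237820214 to 237826650, had 68 to 83 and 19 to 38 reads. In each of these 3 loci the groups did not overlap.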

How the data were processed

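RNA of 12 libraries was sequenced, and the titles placed them in 4 groups of 3. The authors deposited raw counts per gene for each library in the layout of HTSeq. The submitters' processing notes name Trim Galore 0.4.4, STAR 2.6.0a, SAMtools 1.9, Picard 2.23.8, HTSeq 0.11.1, DESeq2, bedtools and hg38, and the strand setting of the counting was not given in the sources used here. The authors also deposited a signal per L1 locus for the 6 non-directional libraries, whole reads divided by 1 factor per library, from which reads were recovered (tolerance 0.01). All 58735 gene IDs matched GENCODE release 29 on GRCh38. The lines of reads in no gene, 4.00% to 4.40% of listed reads with the non-directional kit and 94.6% with the other, stayed out of all totals.

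Each kit was fitted alone with edgeR 4.0.16 in R 4.3.3 (filterByExpr with minimum count 10 and total 15, TMM, quasi-likelihood F-test, Benjamini-Hochberg adjustment over all genes tested, threshold 0.05). Both kits entered 1 fit for the genotype by kit term. Standard errors were obtained as log2 fold change over root F, without sign, and are approximate. DESeq2 1.42.0 was an alternative, beside other scalings, no filter, a replicate block and leaving out each library. Scripts were tested on simulated data. The segment, the genes and the lists were chosen with earlier results of these data known. Genes were named by rule: those called higher, the 10 highest and 10 lowest fold changes at a mean count of at least 50, the 5 highest counts, the 4 genes at each side of each end, 3 on either side of the count limit, at most 5 directional calls each way, and for each list the extremes and the highest count. The genes NUCKS1, LMNA and PARP1 in the directional libraries, those below a mean count of 50, the uncalled genes above 0 and the L1 loci were named after their values were seen. Some genes that these rules name are not reported here. Reads carry no molecular identifiers, so intervals and the floor of 3 counts cover counting error only. The cited paper is about another experiment, on methylation in the spleen of mice, and supplied no method or value.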

Additional observations from a re-analysis of the deposited data

Results flagged for a closer look

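The effect of the knockout differed between the kits for 10 of the 491 genes by the genotype by kit term of edgeR over all 12 libraries, where 1.82% of all genes tested differed. The share among the 491 was thus close to the share over all genes. The non-directional libraries that delimited the block take part in this term, so the values are given as a description. A negative value means a lower log2 fold change in the directional libraries. The term was -3.49 for LINC00624, -2.82 for C1orf21, -1.84 for HEATR1 and -1.39 for CERS2. It was 0.46 for DCAF6, 1.34 for LGALS8, 2.00 for JMJD4, 2.09 for S100A10 and 3.75 for BRINP3. The directional counts of S100A10 and BRINP3 averaged 5.67 and 2.67 per library and did not pass the filter when that kit was fitted alone, and C1orf21 had 3, 2 and 1 counts in the directional knockout libraries. LINC00624, HEATR1, LGALS8, CERS2 and JMJD4 lie opposite to another gene, and the part of the counted strand in these differences was not tested.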

How the results depend on the processing

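Of 137 recomputed values of the comparisons, 121 stayed within 1.5 times the count or within the spread of replicates, and no named gene that was called changed sign in any recomputation. Among the uncalled genes near 0, KDM5B turned from 0.01 to -0.016 without wild-type replicate 2 and RPS6KC1 from 0.04 to -0.0034 without wild-type replicate 1. The non-directional calls were 409 to 421 lower and 9 to 12 higher when single libraries were left out, with a median of -0.47 to -0.45. A count minimum of 100 gave a median of -0.45. Directional calls were 32 to 43 lower (32 without wild-type replicate 2) and 0 to 1 higher (0 without knockout replicate 1), with a median of -0.55 to -0.48. With DESeq2 they were 15 lower and 0 higher, and 48 genes were lower at an unadjusted p under 0.05. In the 41 genes without an opposite-strand overlap edgeR gave 15 lower and 0 higher, with a median of -0.45, fewer genes being tested. Of all genes tested, it called 8.54% lower and 7.67% higher. For windows with at least 10 genes, the range of medians was 0.16 in windows of 10 Mb and 0.29 in windows of 5 Mb. It was 0.31 in runs of 20 genes, and 0.14 to 0.20 in windows of 10 Mb without single libraries. The log2 ratio of the summed counts was -0.44 per counts outside the blocks, and without single libraries -0.44 to -0.42 (non-directional) and -0.51 to -0.47 (directional). Sums of the deposited L1 values gave log2 ratios of -0.24 inside the block, against 0.11 from reads, and 0.17 elsewhere, against 0.53; those values are divided by factors per library. Without single libraries the read ratios were 0.073 to 0.15 and 0.50 to 0.55. Genes that differed between kits numbered 9 to 12.

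Replicate numbers did not pair the libraries (mean correlation of same-numbered deviations -0.0085 non-directional and 0.00057 directional). With a replicate block in the fit, 420 genes were lower and 12 higher in the non-directional libraries and 48 lower and 1 higher in the directional ones. The medians under the block were -0.47 and -0.52. Counts in genes limited the directional comparison, in which 379 of the 491 genes were too low to test. These libraries had 10106592 to 12842195 listed reads, against 11096966 to 12684855 in the non-directional ones, but 94.6% of theirs fell in no feature.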

Other observations

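The L1 loci inside the block differed by the age of their subfamily. The 119 loci of L1HS to L1PA4, the youngest subfamilies, had 72.6 ± 1.82 reads per 1000000 gene counts in the wild type, against 104 ± 3.19 in the knockout (SD, n = 3 each), 1.43-fold, against 1.6-fold for 3803 such loci elsewhere. The 85 loci of the older L1PA5 to L1PA8 had 70.7 ± 4.65 and 51.1 ± 5.50, 0.723-fold, against 1.18-fold for 2430 loci elsewhere. This division was made after the values had been seen, and reads of L1 loci within a gene cannot be told apart from reads of the gene's own transcript.

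The raised block of chromosome 9, with 154 genes, had a robust standard deviation of 0.268 in the non-directional libraries, near the 0.241 of the chromosome 1 block. In the directional libraries its 28 tested genes had a median log2 fold change of 0.23, with 32.1% below 0.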
